A study of Mus musculus with 4 samples.

Results

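The genes described here encode the voltage-gated sodium and calcium channels, the HCN channels and the TRPC, TRPM and TRPV channels, with their accessory subunits. The rule that chose them reads the symbol alone: 64 of the 23453 genes in the authors' deposited table carry such a symbol. Of these, 13 are sodium channel genes, 10 encode calcium channel alpha1 subunits, 4 alpha2delta, 4 beta and 8 gamma subunits, 4 are HCN genes, and 7, 8 and 6 are TRPC, TRPM and TRPV genes. RNA was sequenced from primary hippocampal neurons of newborn C57BL/6NCrl mice after 12 days in culture. The AP bursting group (2 libraries) was given 50 µM bicuculline for 4 h, which blocks GABA-A receptors and sets off bursts of action potentials. The control group (2 libraries) was given the solvent DMSO. Per the series text, 2 independent experiments were made on separate cell preparations, and in such whole cultures fewer cells of a type and less RNA per cell cannot be told apart.

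Voltage-gated sodium channels carry the rising phase of the action potential. Calcium channels turn depolarisation into calcium entry: L-type channels on the cell body and dendrites feed signals to the nucleus, N- and P/Q-type channels trigger transmitter release, and T-type channels open near rest and favour burst firing. HCN channels open on hyperpolarisation and set resting conductance and dendritic integration in hippocampal neurons, while TRP channels are cation channels gated by lipids, ligands, temperature or metabolic state.

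The authors deposited group means and not libraries. Because each mean is a sum of whole reads divided by 2 library scales, the reads of each library could be recovered from it, for all 64 channel genes. Each group holds a deep and a shallow library: the resolved genes hold 25572352 and 13229760 reads in the AP bursting group and 20954659 and 13337809 reads in the control group. Values below are given for the deep library and then for the shallow library of each group, in normalized read counts (reads divided by the library's size factor). The labels do not say which libraries came from the same experiment. The deep-minus-shallow differences of the 2 groups correlated at r = 0.878 over the 13648 genes averaging at least 50 normalized reads and at r = 0.961 across the 44 channel genes at that level (across genes, which are not independent replicates), and the deep libraries were therefore taken as one pair and the shallow libraries as the other.

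No channel gene was called changed by the authors after 4 h of AP bursting. Of the 64, 0 in the authors' deposited table had an adjusted p under 0.05, and the adjusted p of each was 1. Of all genes in it, 0.610% were called higher and 0 lower. The deposited folds of AP bursting over control ran between 0.692 and 1.50 for the 44 channel genes averaging at least 50. All 7 activity markers were called higher in the authors' deposited table, with 192-fold for Fos and 54.4-fold for Arc.

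A limma fit on log2(value + 1) with the pair as a block called 1 of the 61 channel genes with a mean of at least 1, Scn3a, which was lower. It called 0 higher. Over all 20226 genes tested it called 6.87% higher and 6.10% lower, or 13.0% in either direction. At an unadjusted p under 0.05 it counted 10 of the 61 channel genes, against 23.2% of all genes. Without the block limma called 0 of the 61, and 0 had an unadjusted p under 0.05; over all genes the shares were 0.00989% called and 3.30% at an unadjusted p under 0.05. The blocked fit has 1 residual degree of freedom, and its SEs and p-values follow a variance trend across genes. A gene's own spread between libraries carries no weight in them. A permutation test of 2 libraries against 2 cannot give an exact two-sided p under 0.333. On simulated reads with 200 of 20226 genes changed, the blocked fit called 22 of 34 genes raised 2-fold and 24 of 33 lowered 2-fold. Of genes changed 1.5-fold it called 9 of 33 raised and 12 of 33 lowered, so such changes were often missed there. The fit without the block called 0 of the 34 genes raised 4-fold and 0 of the 33 lowered 4-fold there. A count of 0 from that fit, here and below, therefore says little. The real blocked fit called a larger share of genes than the simulated one, which makes its threshold less strict. The simulation also added read noise to a spread that already held it. Its shares therefore do not give the power of the real fit.

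The intervals of the blocked fit rest on the inferred pairs and on the variance trend. For 43 of the 44 that average at least 50, the 95% interval of the blocked log2 fold lay within a 2-fold change in either direction; the exception was Trpc6, whose upper bound was 1.05. Without the block the intervals are wider: the SE was 0.35 for Scn3a and 0.53 for Trpm7. The median log2 fold of the 61 tested genes was 0.15, beside -0.02 over all genes. With 1 library left out, without the block, that median was between -0.08 (without the shallow AP bursting library) and 0.33 (without the deep one). Scaled instead by the total reads of the genes resolved in both groups, the median was 0.01 for the channel genes and -0.16 over all genes. Directions below are therefore relative to the bulk of genes. This is the total-read scaling named below, and its totals leave out the unresolved genes, which are among the most abundant.

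**Figure D1:**
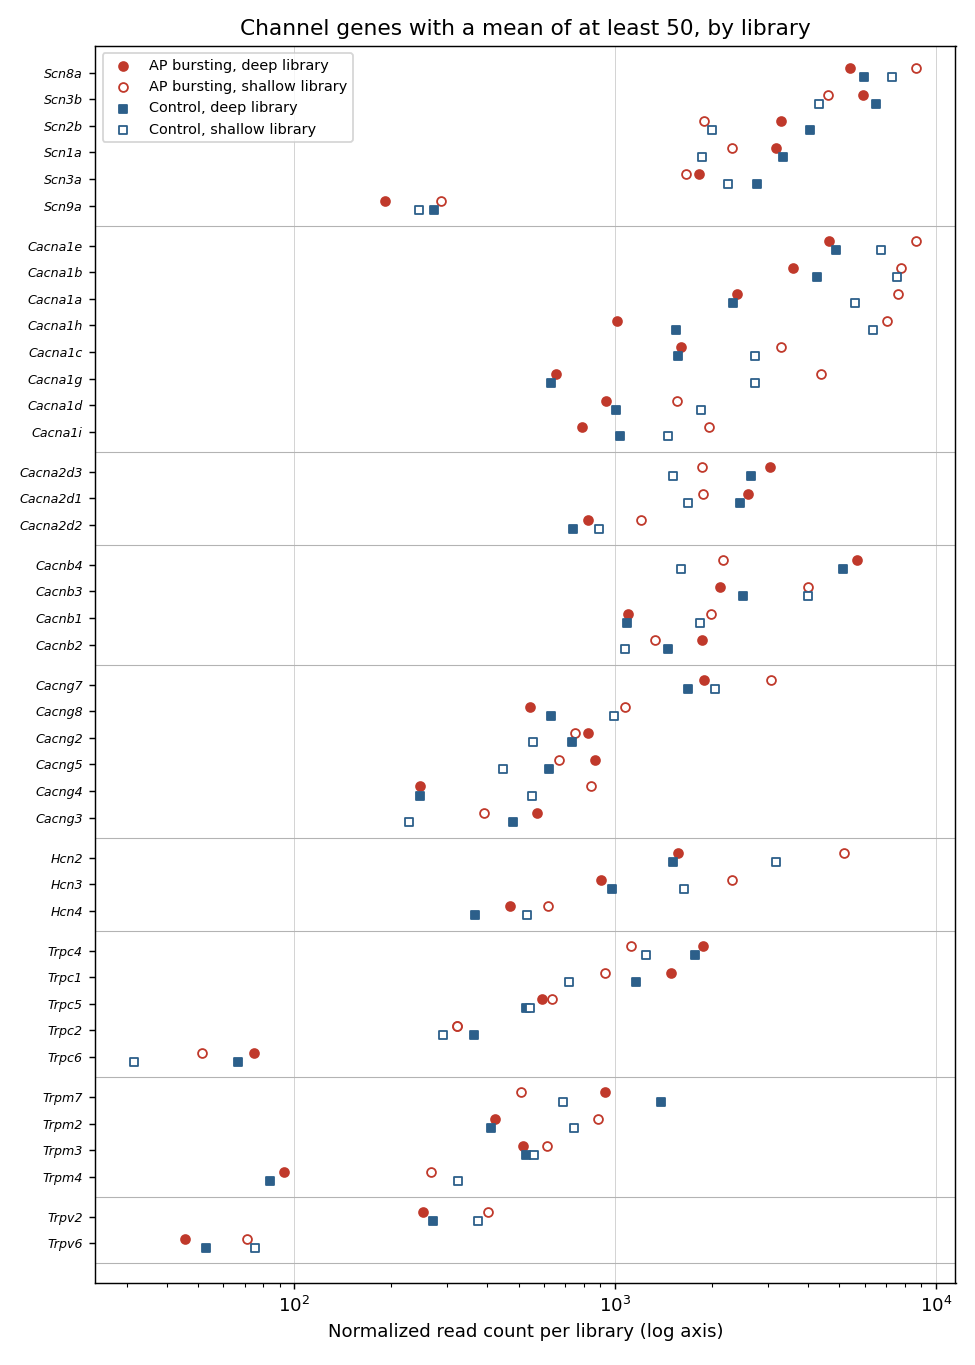
Normalized read count (log axis) of 41 of the 44 channel genes averaging at least 50, grouped by family, in the AP bursting libraries (red circles) and the control libraries (blue squares), with filled symbols for the deep and open symbols for the shallow library. For most genes the filled and open symbols of a group lie farther apart than the red and blue symbols of the same fill.

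Over the 44 genes, the values of the groups overlapped for 39, as the red and blue symbols in the plot of values by library show gene by gene. The groups did not overlap for 4 genes that were higher, among them Cacng2, Cacng5 and Trpc5, against 11.5% of all genes at that level, and for 1 that was lower (Scn3a), against 11.7%.

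Among the pore-forming sodium channel genes chosen by symbol, only Scn3a was called, and only by limma with both the block and the variance trend. It encodes a channel known for its abundance in embryonic and newborn brain. Scn3a had 1827 and 1662 normalized read counts in the AP bursting libraries, against 2763 and 2252 in the control libraries. The groups did not overlap, and the value was lower in both pairs, by log2 folds of -0.60 for the deep libraries and -0.44 for the shallow ones. Scn3a averaged 1745 ± 117 after AP bursting and 2508 ± 361 in controls (SD, n = 2 each). The blocked log2 fold was -0.52 ± 0.17 (SE; adjusted p = 0.0265, limma with Benjamini-Hochberg adjustment). In the authors' deposited table its fold was 0.696 with an adjusted p of 1. With any of the 4 libraries left out, which also ends the block, the log2 fold was between -0.66 and -0.37 and was not called.

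Of the 64 genes, the other pore-forming sodium channel genes with a mean of 50 or more were Scn8a, Scn1a and Scn9a, and none of them was called. Scn8a, the channel of the axon initial segment, had 5385 and 8705 normalized read counts in the AP bursting libraries, against 5979 and 7331 in the control libraries. Scn1a had 3183 and 2308 in the AP bursting libraries, against 3329 and 1863 in the control libraries, and Scn9a, best known from sensory neurons, had 191 and 286 against 274 and 245. All 3 were lower in the deep pair and higher in the shallow pair. Scn1a, Scn3a, Scn7a and Scn9a lie together on chromosome 2, and the sensory neuron genes Scn10a and Scn11a on chromosome 9. On chromosome 2 the blocked log2 folds were 0.12 for Scn1a, -0.15 for Scn9a and 0.27 for Scn7a, beside -0.52 for Scn3a. Scn7a had only 39 reads in the AP bursting and 38 in the control libraries. The gene beside Scn3a, listed as Scn2a1 and outside the rule, was also lower. Its fold in the authors' deposited table was 0.812, and it was not called there.

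The auxiliary beta subunits of sodium channels anchor the pore and speed its gating. Scn2b had 3283 and 1895 normalized read counts in the AP bursting libraries, against 4068 and 2008 in the control libraries. Each AP bursting library lay below its control partner, but the groups overlapped, and the blocked log2 fold of -0.20 ± 0.17 was not called (adjusted p = 0.552, limma). Scn3b had 5916 and 4615 in the AP bursting libraries, against 6524 and 4324 in the control libraries, lower in the deep and higher in the shallow pair (adjusted p = 0.958, limma). Scn4b was near the floor of the data, with 12.6 and 12.1 against 11.2 and 9.84.

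The calcium channel alpha1 genes, which form the pore, were called in 0 of 10 cases. Their leading member per kilobase, by the mean of the groups, was Cacna1b, the N-type channel of presynaptic terminals. Cacna1b had 3594 and 7780 normalized read counts in the AP bursting libraries, against 4253 and 7594 in the control libraries, a blocked log2 fold of -0.10 ± 0.16. The P/Q-type gene Cacna1a had 2398 and 7640 against 2336 and 5609, and the R-type gene Cacna1e had 4647 and 8655 against 4879 and 6763. The range within each group was wider than the difference between the groups for all 3 genes.

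Of the L-type genes, which link depolarisation to the nucleus, Cacna1c had 1605 and 3298 normalized read counts in the AP bursting libraries, against 1566 and 2726 in the control libraries. Cacna1d had 934 and 1556 against 1010 and 1854, lower in both pairs with a blocked log2 fold of -0.18 ± 0.18. The retinal gene Cacna1f and the skeletal muscle gene Cacna1s had low counts. Cacna1s had 40 reads in the AP bursting libraries and 35 in the control libraries. Cacna1f, named here after its values were seen, had 35 reads in the AP bursting libraries and 19 in the control libraries, which is a ratio of 2.15 (exact 95% interval 1.19 to 3.97, counting error only). Its blocked log2 fold was not called (1.19 ± 0.47, adjusted p = 0.0788, limma).

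Cacna1g and Cacna1h, of the T type, differed most between the deep and shallow libraries of the 44 genes averaging at least 50. Cacna1g had 656 and 4402 normalized read counts in the AP bursting libraries, against 633 and 2729 in the control libraries. Cacna1h had 1016 and 7058 in the AP bursting libraries, against 1547 and 6372 in the control libraries. In each group the shallow library was several times above the deep library. Cacna1g differed between the treatments mainly in the shallow pair, by a log2 fold of 0.69, beside 0.05 between the deep libraries, and its blocked log2 fold of 0.37 ± 0.18 was not called (adjusted p = 0.186, limma). Cacna1h was lower in the deep pair (-0.61) and higher in the shallow pair (0.15). The third T-type gene, Cacna1i, had 790 and 1969 against 1036 and 1465 and was also lower in the deep and higher in the shallow pair.

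Per kilobase of exon, T-type genes made up 19.1% and 36.7% of all alpha1 values in the AP bursting libraries, and 22.5% and 34.9% in the control libraries. The N-, P/Q- and R-type genes together made up 66.2% and 54.1% in the AP bursting libraries, and 64.1% and 54.1% in the control libraries. L-type genes made up 14.7% and 9.21% in the AP bursting libraries, and 13.4% and 10.95% in the control libraries. The mix of pore types thus differed more between the deep and shallow libraries of a group than between the groups.

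The alpha2delta subunits carry channels to the surface, and Cacna2d1 and Cacna2d2 are the binding sites of gabapentin. Cacna2d3 had 3039 and 1871 normalized read counts in the AP bursting libraries, against 2658 and 1512 in the control libraries. Cacna2d1 had 2607 and 1874 in the AP bursting libraries, against 2448 and 1694 in the control libraries, and Cacna2d2 had 821 and 1205 against 738 and 890. These 3 genes were higher in both pairs while the groups overlapped, and none was called. Their blocked log2 folds were 0.25 ± 0.17, 0.12 ± 0.17 and 0.29 ± 0.19. Scaled by total reads, 3 of the 4 alpha2delta genes kept a positive fold.

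The cytoplasmic beta subunits bind the pore and promote its surface delivery. Cacnb3 led them per kilobase, with 2123 and 3989 normalized read counts in the AP bursting libraries, against 2503 and 3990 in the control libraries. Cacnb2 had 1866 and 1334 in the AP bursting libraries, against 1467 and 1077 in the control libraries, higher by a similar amount in both pairs (log2 folds of 0.35 and 0.31), with a blocked adjusted p of 0.273 in limma. Cacnb4 had 5663 and 2177 against 5131 and 1611, and Cacnb1 had 1099 and 1997 against 1090 and 1834. Exons of Cacnb4 overlap those of A430018G15Rik over 13.4% of their length, and the libraries do not keep strand, so part of its reads may belong to that gene.

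The gamma genes include the transmembrane regulators of AMPA receptors, proteins that bind these glutamate receptors and alter their trafficking or gating, in ways that differ between members. Of the 6 such genes (Cacng2, Cacng3, Cacng4, Cacng5, Cacng7 and Cacng8), 5 had a positive blocked log2 fold, also under total-read scaling, and 5 were higher in both pairs. Among all genes averaging at least 50, 32.3% were higher in both pairs. The median of the 6 blocked log2 folds was 0.34, and 0 of the 6 was called.

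Cacng5 stood at the top of them. It had 867 and 671 normalized read counts in the AP bursting libraries, against 623 and 448 in the control libraries. The groups did not overlap, and the log2 fold was 0.48 between the deep libraries and 0.58 between the shallow ones. The blocked log2 fold of 0.53 ± 0.20 missed the threshold (adjusted p = 0.0641, limma); in the authors' deposited table the fold was 1.44 with an adjusted p of 1. With any 1 library left out, without the block, the log2 fold was between 0.29 and 0.76 and was not called. Its promoter is shown because, of the 50 channel genes found among the RefSeq promoters, it and Trpv3 alone carry the AP-1 letters TGANTCA, the motif bound by the Fos and Jun proteins, in a window from 250 bases before to 50 after a start. The window lies at chr11:107915006-107915305 on the minus strand (GRCm38.p6, RefSeq), and capitals mark the motif.
Cacng5: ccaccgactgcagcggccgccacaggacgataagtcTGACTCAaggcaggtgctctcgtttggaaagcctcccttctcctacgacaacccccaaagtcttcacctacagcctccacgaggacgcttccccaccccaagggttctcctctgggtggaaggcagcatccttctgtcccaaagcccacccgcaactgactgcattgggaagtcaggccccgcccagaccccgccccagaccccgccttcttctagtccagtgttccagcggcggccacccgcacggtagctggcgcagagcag
The motif begins 214 bases before the start. A second window of Cacng5 holds no match. TGANTCA was found in 3.125% of the 64 windows of channel genes and in 7.81% of 32851 windows of all genes, on both strands. The full cAMP response element TGACGTCA was in 0 of the 64 and in 1.79% of all windows, and its shorter form TGACG, which the full element also holds, was in 12 of the 64 (18.75%) and in 20.8% of all. A match of letters is a description and not a binding site.

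The remaining AMPA receptor regulators were lower in rank. Cacng7 had 1895 and 3073 normalized read counts in the AP bursting libraries, against 1691 and 2050 in the control libraries, with a blocked log2 fold of 0.37 ± 0.17. Cacng3 had 569 and 389 in the AP bursting libraries, against 481 and 228 in the control libraries, and Cacng2, the founding member known as stargazin, had 821 and 751 against 735 and 556. Cacng4 had 247 and 842 against 247 and 549, so its difference lay in the shallow pair. Cacng8, the form known for its abundance in hippocampus, had 545 and 1076 against 633 and 995 and a blocked log2 fold of -0.05 ± 0.20. The skeletal muscle gene Cacng1 and its relative Cacng6 were near the floor of the data.

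HCN genes had positive folds after AP bursting, and 0 of the 4 was called. Hcn2 had 1572 and 5165 normalized read counts in the AP bursting libraries, against 1515 and 3173 in the control libraries. The difference lay in the shallow pair (log2 fold 0.70, beside 0.05 in the deep pair), and the blocked log2 fold was 0.38 ± 0.17 (adjusted p = 0.139, limma). Hcn4 had 470 and 619 against 366 and 532, and Hcn3 had 902 and 2314 against 976 and 1644, lower in the deep pair. All 4 blocked log2 folds were positive, from 0.19 for Hcn3 to 0.38 for Hcn2, and stayed positive under total-read scaling. Exons of Hcn3 overlap those of Pklr over 17.8% of their length.

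Per kilobase, Hcn2 took 50.4% and 66.1% of the HCN values in the AP bursting libraries, and 51.2% and 61.8% in the control libraries. Hcn3 took 23.1% and 23.7% in the AP bursting libraries, and 26.4% and 25.6% in the control libraries. These shares depend on annotated length.

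The TRPC channels are opened downstream of phospholipase C. Trpc4 led them per kilobase and had 1883 and 1123 normalized read counts in the AP bursting libraries, against 1769 and 1251 in the control libraries. Its pairs went opposite ways, and the blocked log2 fold was -0.03 ± 0.18. Trpc6, which diacylglycerol opens, had 74.8 and 51.5 in the AP bursting libraries, against 66.7 and 31.7 in the control libraries, with a blocked log2 fold of 0.42 ± 0.32 that was not called. Trpc1 had 1490 and 931 against 1165 and 719, and Trpc5 had 592 and 634 against 529 and 543. Both were higher in both pairs, and the groups of Trpc5 did not overlap. The entry listed as Trpc2 has an ID that GENCODE names Xntrpc, and 65.7% of its exon length overlaps the gene annotated there as Trpc2. Its 321 and 322 in the AP bursting libraries, against 363 and 290 in the control libraries, cannot be assigned to either gene alone.

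Among the TRPM genes averaging at least 50, Trpm7, a channel fused to a protein kinase that carries magnesium and zinc into cells, was the lowest by fold. It had 928 and 510 normalized read counts in the AP bursting libraries, against 1394 and 686 in the control libraries. Each AP bursting library lay below its control partner, by log2 folds of -0.59 and -0.43, while the groups overlapped. The blocked log2 fold of -0.51 ± 0.19 missed the threshold (adjusted p = 0.0665, limma); under total-read scaling it was -0.65 and was called (adjusted p = 0.0173, limma), in a fit that called 4.92% of all genes higher and 9.52% lower. Without the block and with 1 library left out, its log2 fold was between -1.02 (without the shallow control library) and 0.005 (without the deep control library) and was not called. The promoter of Trpm7 is shown as that of the gene nearest to a call after Scn3a and Cacng5 and because it holds the E-box CACGTG at 2 places, beside CGTCA, which is TGACG read on the other strand. It lies at chr2:126876212-126876511 on the minus strand (GRCm38.p6, RefSeq), and capitals mark the motifs, of which CGTCA and the later CACGTG share 2 bases.
Trpm7: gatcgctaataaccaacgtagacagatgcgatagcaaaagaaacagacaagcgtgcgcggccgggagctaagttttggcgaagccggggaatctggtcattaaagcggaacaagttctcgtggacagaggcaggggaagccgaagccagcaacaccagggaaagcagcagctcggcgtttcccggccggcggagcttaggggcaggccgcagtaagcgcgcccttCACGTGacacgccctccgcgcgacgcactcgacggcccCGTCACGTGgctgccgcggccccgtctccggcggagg
CACGTG was found in 3 of the 64 windows of channel genes, those of Trpm1, Trpm7 and Trpv3 (4.69%), and in 7.15% of all windows.

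The other TRPM genes at this level showed no difference beyond their spread. Trpm2, opened by ADP-ribose during oxidative stress, had 424 and 882 normalized read counts in the AP bursting libraries, against 409 and 743 in the control libraries (blocked log2 fold 0.15 ± 0.20). Trpm3 had 515 and 612 against 527 and 560, and the calcium-activated channel Trpm4 had 92.9 and 266 against 83.9 and 323. Of the TRPV genes, Trpv2 had 251 and 401 in the AP bursting libraries, against 271 and 373 in the control libraries, and the epithelial calcium channel Trpv6 had 45.7 and 71.1 against 53.2 and 75.5. The blocked log2 fold was -0.003 for Trpv2 and -0.15 for Trpv6, and neither was called.

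Trpv1, the heat and pungency sensor of sensory neurons, and Trpm8, their cold sensor, were near the floor of the data. So were Trpv4 and Cacng1. Trpv1 had 18 reads in the AP bursting libraries and 25 in the control libraries, and Trpm8 had 14 and 12. Trpv4 had 8 reads in the AP bursting libraries and 2 in the control libraries, for a ratio of 4.66 (exact 95% counting interval 0.930 to 45.0). Cacng1 had 1 read against 7, for a ratio of 0.166 (0.00369 to 1.29). Trpv5 had 1 read in the AP bursting libraries and 0 in the control libraries, both under the floor of 3 reads, so no fold is given. No difference was detectable in these genes at this depth.

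**Figure D2:**
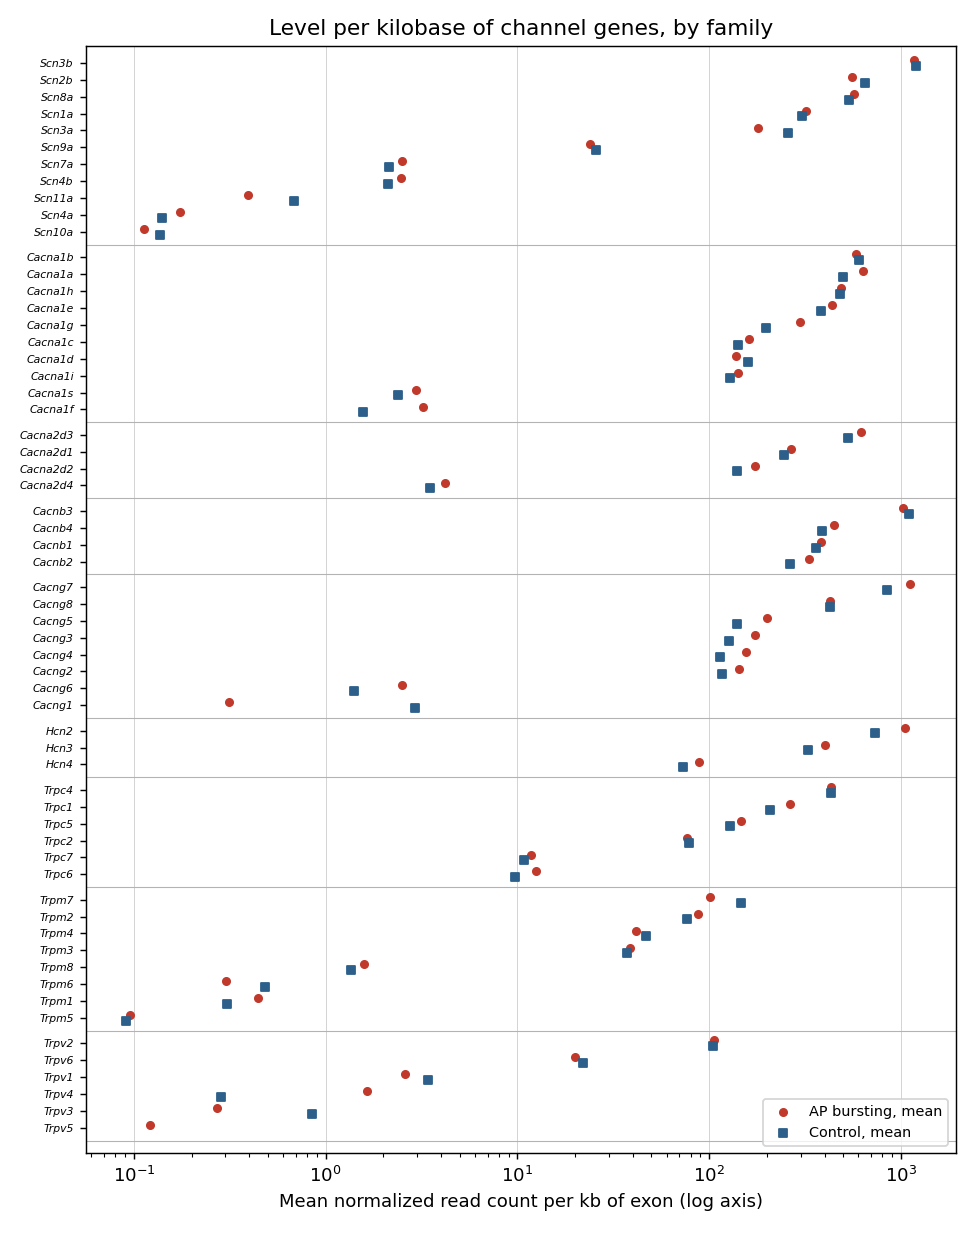
Mean normalized read count per kilobase of exon (log axis) of 60 of the 64 channel genes, ordered by level within each family, in the AP bursting group (red circles) and the control group (blue squares). Red and blue symbols lie close together for the abundant genes and apart for genes of a few reads; the control value of Trpv5 is 0 and is not drawn.

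The plot of levels per kilobase spans about 4 orders of magnitude. Among the highest were Scn3b (1165 after AP bursting and 1200 in controls), Cacnb3 (1032 and 1097), Cacng7 (1123 and 846) and Hcn2 (1054 and 734), and the library ranges of these 4 genes overlap, so their order is not fixed. The leading alpha subunit genes chosen by the symbol rule were Cacna1b, Cacna1a and Scn8a. Cacna1b had 581 after AP bursting and 606 in controls, Cacna1a 633 and 501, and Scn8a 571 and 540. They followed at similar levels to each other. The sodium channel gene Scn2a1, outside that rule, was above each of them, with 947 after AP bursting and 1165 in controls. Among the genes chosen by the rule, Cacnb3 ranked 5 after AP bursting and 3 in controls.

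**Figure D3:**
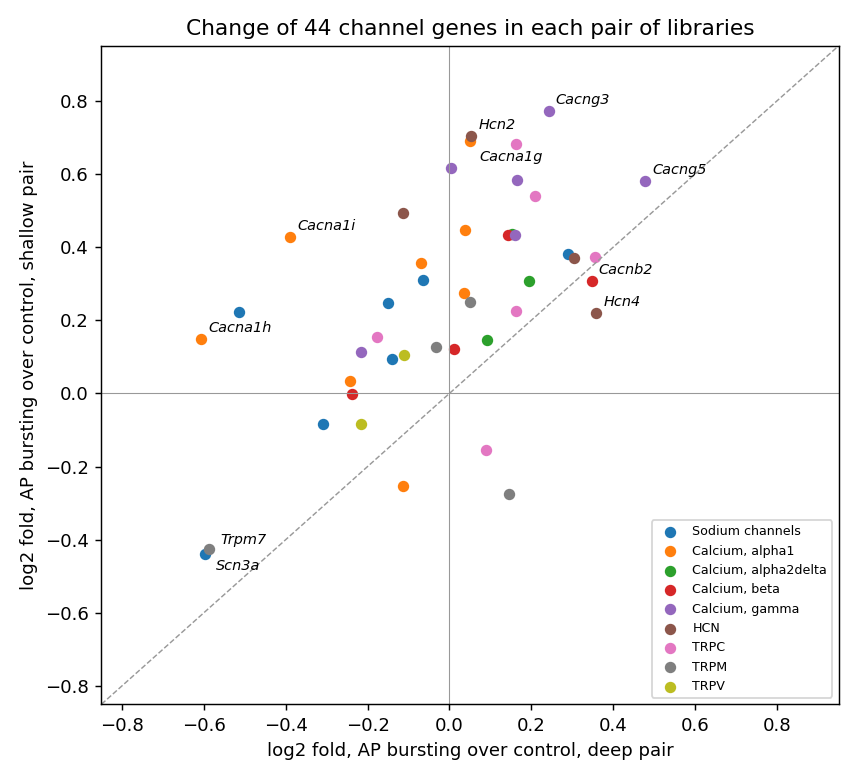
Log2 fold of AP bursting over control in the deep pair (horizontal axis) and the shallow pair (vertical axis) for the 44 channel genes averaging at least 50, coloured by family, with the line of equal folds dashed. Most points lie above the dashed line, and Scn3a and Trpm7 lie together at the lower left.

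The channel genes differed between the pairs in the way the plot of folds by pair shows. The fold was larger in the shallow than in the deep pair for 39 of the 44, or 88.6%, beside 50.7% of all genes at that level. In the shallow pair 36 were higher after AP bursting than in the control library (81.8%, beside 47.2% of all genes), and in the deep pair 25 were (56.8%, beside 50.2%). Over the 61 tested genes the median log2 fold was 0.26 in the shallow pair and 0.04 in the deep pair, beside -0.02 and 0.01 over all genes. In all, 23 of the 44 were higher in both pairs, 6 were lower in both (35.0% over all genes), and 15 went opposite ways. With 1 library of each group in a pair, the difference between the pairs has no replicate check.

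**Figure D4:**
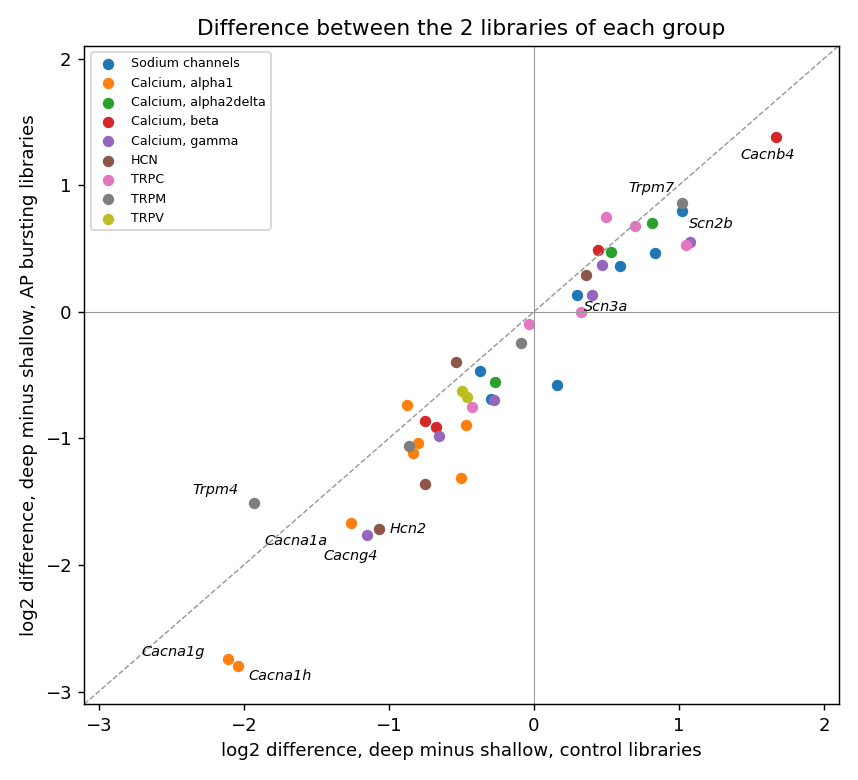
Log2 difference between the deep and the shallow library of the AP bursting group (vertical axis) and of the control group (horizontal axis) for the same 44 genes, coloured by family, with the line of equal differences dashed. The points follow the dashed line and mostly lie below it, from Cacna1g and Cacna1h at the lower left to Cacnb4 at the upper right.

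Library differed more than treatment. For 39 of the 44 genes the deep-minus-shallow log2 difference, averaged over the groups, was larger in size than the blocked log2 fold, beside 73.5% of all genes at that level. Its median size was 0.69 on the log2 scale, and that of the fold 0.20, against 0.59 and 0.24 over all genes. All 8 alpha1 genes averaging at least 50 were higher in the shallow library of both groups, as were 5300 of all 13648 genes. Opposite cases in the plot of library differences were Cacnb4, Scn2b and Trpm7, which were higher in the deep library of both groups.

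Markers of other cell types were measured beside the channel genes. The summed level of 7 of 7 astrocyte markers was 15631 and 21655 in the AP bursting libraries, against 14382 and 16217 in the control libraries. That of 5 resolved inhibitory neuron markers was 22319 and 28137 in the AP bursting libraries, against 16948 and 17912 in the control libraries. Limma with the block called 3 of the 5 higher, beside 6.87% of all genes, while Pvalb was lower in both pairs and not called. Without the block it called 0 of the 5, and the authors' deposited comparison also called 0. Of 5 excitatory markers 3 were resolved. Slc17a6 and Tbr1 were called higher and Neurod6 lower, with blocked log2 folds of 1.30, 0.74 and -0.999. In the authors' deposited table the adjusted p of each was 1. The unresolved markers Slc17a7 and Camk2a had deposited folds of 1.14 and 1.17. The pairs of Tbr1 went opposite ways, with 890 and 4042 in the AP bursting libraries, against 1081 and 1191 in the control libraries. The 6 microglia markers summed to 59.8 and 80.2 against 42.0 and 66.7, and the 3 endothelial markers to 50.4 and 101 against 77.2 and 84.2. Of the microglia markers, Cx3cr1 and P2ry12 had 0 reads in the deep control library. The part of cell mixture in the channel values was not tested.

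Genes listed as partners of these channels were also counted, and binding was not tested. Of 13 tested calcium channel partners, 3 were called higher and 0 lower by limma with the block: the RGK GTPases Gem, Rem2 and Rrad, which are known to inhibit voltage-gated calcium channels. Of all genes, 6.87% were called higher by that fit, and without the block limma called 0 of these 13. Rem2 had 734 and 849 normalized read counts in the AP bursting libraries, against 214 and 293 in the control libraries, with a blocked log2 fold of 1.65. Gem had 102 and 136 against 47.2 and 27.3, and Rrad had 29.1 and 66.6 against 8.24 and 12.0. The groups of all 3 genes did not overlap, though in the authors' deposited table their adjusted p-values were 0.456 for Rem2, 1 for Gem and 0.907 for Rrad.

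Of 7 HCN partners, 2 were called higher by limma with the block, beside 6.87% of all genes, and 0 lower; without the block 0 were called. These were Rgs7bp, with a blocked log2 fold of 0.84, and Flna, an actin crosslinker, with 0.43; in the authors' deposited table both had an adjusted p of 1. Of 8 tested sodium channel partners, 0 were called in either direction. The sodium leak channel gene Nalcn had 3839 and 2560 normalized read counts in the AP bursting libraries, against 3774 and 2230 in the control libraries, and was not called.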

How the data were processed

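RNA of 4 libraries, 2 per group, was made into Illumina libraries without strand, per the labels' protocols. The submitters' processing notes name DESeq 1.12.0, SAMtools 0.1.19, TopHat 1.2.0 and the build mm9; the annotation is not given in the sources used here. Per the file headers, the authors deposited for each gene the mean normalized signal of each group, an AP bursting to control ratio (fold) and an adjusted p-value.

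The values are means, so the planned main test was the authors' adjusted p (threshold 0.05), and no count test was run. Each mean was searched for the only pair of whole reads that gives it within a tolerance. The tolerance was 1.05 times the largest rounding error of the printed mean, plus a margin for the error of the fitted library scales. This resolved 23338 of 23453 AP bursting values and 23171 control values, or 82.7% and 70.2% of the signal. The unresolved values lie at 11362 or higher in the AP bursting group and at 10015 or higher in the control group. Of 2000 values moved at random per group, 2 and 6 found a pair. Size factors were 1.27 and 0.661 in the AP bursting group and 1.33 and 0.914 in the control group.

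Log2(value + 1) of genes with a mean of at least 1 was fitted with limma 3.58.1 (R 4.3.3) with trend, with and without the pair as a block, and p-values were adjusted by Benjamini-Hochberg over all 20226 genes. Fold changes on this scale understate those of low genes. The pairing comes from the data, not from the labels: the correlation of deep-minus-shallow differences was 0.878. In the main blocked fit the prior degrees of freedom were infinite. Its SEs and p-values therefore follow the variance trend across genes, and not the spread of each gene's own libraries. They do not reach beyond these samples. The fits were tested on simulated data with a known change in 200 of 20226 genes. The blocked fit called 9 of 20026 unchanged genes. In that simulation, genes of similar level shared 1 spread, as the blocked fit assumes. These few false calls therefore do not show how many the real fit makes. The fit without block called 0 unchanged genes, but also 0 of the 34 raised 4-fold and 0 of the 33 lowered 4-fold. Levels per kilobase use the summed exon length of GENCODE vM21 (GRCm38), which may differ from the authors' annotation; 64 of 64 IDs matched. RefSeq promoters (GRCm38.p6) matched 50 of the 64 genes. Exons of 16 of the 64 genes overlap another gene.

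The genes named in full are, per family, the highest per kilobase, the highest and lowest fold among genes averaging at least 50, called genes, and genes without a read in a group. Some genes are not reported here, although counts over families include them. The other genes named were added to show their family whole. The members, lists and tests were chosen with earlier results of these data known. Alternatives were other pseudocounts, filters, scaling, no trend and leaving out each library. Total-read scaling used the reads of genes resolved in both groups only.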

Additional observations from a re-analysis of the deposited data

How the results depend on the processing

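The deposited comparison called 0 channel genes at a threshold of 0.05 and of 0.1, and limma with the replicate block called 1, Scn3a. In that blocked fit the count was 0 without the replicate block, 0 without the variance trend, and 2 (Scn3a and Trpm7) under total-read scaling; the cause was not tested. Leaving out each library in turn, fitted without the block and with the lone library assumed to vary like the other group, gave 0 to 0. Pseudocounts of 0.5 and 5, minimum means of 10 and 50 (the last chosen after seeing the data) and no filter beyond 1 read each gave 1, again Scn3a. Over those alternatives and the ones above, the adjusted p of Scn3a in limma ran from 0.00377 under total-read scaling to 1. Limma without the block called 0 under each setting run. The median log2 fold of the channel genes, 0.15, was 0.04 in the deep pair, 0.26 in the shallow pair and 0.01 under total-read scaling; leaving out each library in turn, without the block and chosen after seeing the data, gave -0.075 to 0.33. Of 105 alternatives for 21 named genes, 94 kept direction and, where a p-value was at hand, side of the threshold. The deep pair alone and the shallow pair alone give no p-value, so only the sign was compared there. The authors' deposited table calls 0 channel genes, so a gene not called by limma could not change side there. In 2 the side changed: the deposited log2 fold of Scn3a, -0.52, was not called, and Trpm7 was called at -0.65 under total-read scaling. In 9, over 7 genes that were not called, the sign turned. These were the log2 fold in the authors' deposited table for Cacna1h (0.028) and Trpv2 (0.018), the deep pair for Hcn3 (-0.11) and Trpc4 (0.090), the shallow pair for Cacna1b (0.035), Cacna1h (0.15), Cacng8 (0.11) and Trpv2 (0.10), and total-read scaling for Cacna2d1 (-0.030). The cause was not tested.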

Other observations

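Calcium also reaches the cytoplasm from the endoplasmic reticulum and through store-operated channels. Of 14 genes of this kind, 1 was called higher and 1 lower by the blocked limma fit, beside 6.87% and 6.10% of all genes. Homer1, a scaffold that ties metabotropic glutamate receptors to calcium release channels, had 10830 and 3940 normalized read counts in the AP bursting libraries, against 2537 and 1070 in the control libraries, a blocked log2 fold of 1.99. In the authors' deposited table Homer1 was 4.09-fold higher with an adjusted p of 0.0318. Orai3, a pore subunit of store-operated channels, had 73.2 and 118 in the AP bursting libraries, against 186 and 174 in the control libraries, with a blocked log2 fold of -0.94; in the authors' deposited table its adjusted p was 1. Ryr2 and Itpr1, the main release channels of heart and brain, were not called.

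Of 9 genes of calcium extrusion and buffering, 1 was called, beside 13.0% of all genes: Atp2b2, a plasma membrane calcium pump. It had 5137 and 5566 normalized read counts in the AP bursting libraries, against 8205 and 7802 in the control libraries, without overlap and with a blocked log2 fold of -0.58; in the authors' deposited table its adjusted p was 1. Of 8 other TRP and polycystin channel genes, 1 was called, Pkd2l2, which was lower, with 419 and 117 in the AP bursting libraries, against 620 and 254 in the control libraries. In the authors' deposited table the adjusted p of Pkd2l2 was 1. Shares of 1 in 9 and 1 in 8 are close to the share called over all genes. The table lists the gene of a main brain sodium channel as Scn2a1, a symbol outside the rule used for the 64 genes. In the authors' deposited table Scn2a1 had a mean of 8594 after AP bursting and 10579 in controls, a fold of 0.812 with an adjusted p of 1.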
